A study of Mus musculus with 12 samples.

Results

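The 31 genes described here serve the unfolded protein response of the endoplasmic reticulum (ER), the program that raises the folding and disposal capacity of the secretory pathway when unfolded proteins collect in it. They were taken by symbol from a list of ATF6 and XBP1 pathway sensors, chaperones and degradation genes, to ask whether the stress response of these spinal cords has an ER part. All 31 were found once each among 38924 genes, and all 31 were among the 17189 genes with enough counts to be tested. They comprise 4 sensors and transcription factors, 8 Hsp70 and Hsp90 chaperones with their cofactors, 7 lectin chaperones and disulfide isomerases, 8 degradation genes and 4 genes of translocation, glycosylation and export.

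RNA of whole spinal cord was sequenced from 6 ETAQ+/- mice and 6 WT mice, all 8 weeks old and on a B6J;FVB background. The ETAQ+/- mice carry 1 copy of Gars, the glycyl-tRNA synthetase gene, with a deletion named after the amino acids it removes, and they are called ETAQ below. Each genotype had 3 females and 3 males, and the mice are numbered 1 to 12 as in the titles. The labels name no transgene or Cre driver in either group, and the whole cord mixes neurons, glia, vessels and membranes.

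Unfolded proteins in the ER are sensed by the membrane proteins ATF6, IRE1 and PERK. ATF6 is carried to the Golgi and cleaved into a transcription factor, IRE1 (gene Ern1) splices the Xbp1 mRNA into the form that encodes the active XBP1, and PERK (gene Eif2ak3) phosphorylates eIF2α, which slows translation while ATF4 is made. ATF6 and XBP1 act through ER stress response elements in promoters and raise chaperones such as BiP (gene Hspa5). ATF4 is also made when other kinases phosphorylate eIF2α, for instance under amino acid shortage, so an ATF4 response can run with or without the ATF6 and XBP1 arms.

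Some of the promoters hold the sites by which this response is known. In RefSeq windows (GRCm38.p6) from 250 bases before to 50 bases after each annotated start, searched on both strands, the ER stress response element (CCAAT and CCACG with 9 bases between them) was found in 39 of 32851 windows of all genes, or 0.119%. Of the 31 genes, 26 had a window, and 9 of these 26 held the element. Its second form (ATTGG and CCACG with 1 base between them) was found in 0.0365% of all windows and in those of 2 of the 26 genes. The matches are printed 5′ to 3′ on the strand of the gene, with both fixed parts of the element in capitals, because they are the sequences through which a response by ATF6 or XBP1 would be read. In Calr, Derl3, Creld2 and the downstream Hsp90b1 site the element lies on the opposite strand, so that the capitals read CGTGG and ATTGG.
Hspa5, chr2:34772020-34772048, plus strand: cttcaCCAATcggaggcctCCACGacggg
Hsp90b1, upstream site, chr10:86705618-86705676, minus strand: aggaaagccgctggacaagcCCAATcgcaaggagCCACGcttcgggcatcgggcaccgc
Hsp90b1, downstream site, chr10:86705513-86705571, minus strand: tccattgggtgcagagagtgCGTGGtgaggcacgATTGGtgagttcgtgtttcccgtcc
Calr, chr8:84847055-84847113, minus strand: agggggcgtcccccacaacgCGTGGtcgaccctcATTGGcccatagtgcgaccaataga
Canx, chr11:50325780-50325838, minus strand: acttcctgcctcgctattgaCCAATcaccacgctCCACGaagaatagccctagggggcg
Pdia6, chr12:17266471-17266529, plus strand: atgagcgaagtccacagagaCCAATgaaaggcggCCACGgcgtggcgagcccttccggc
Dnajc3, chr14:118937807-118937865, plus strand: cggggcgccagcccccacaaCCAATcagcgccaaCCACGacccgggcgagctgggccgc
Creld2, chr15:88819500-88819558, plus strand: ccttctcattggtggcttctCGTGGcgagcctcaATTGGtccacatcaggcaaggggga
Syvn1, chr19:6046512-6046570, plus strand: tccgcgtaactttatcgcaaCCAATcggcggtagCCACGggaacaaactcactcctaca
Derl3, chr10:75893222-75893280, plus strand: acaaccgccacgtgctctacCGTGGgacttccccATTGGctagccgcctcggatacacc
Herpud1, second form, chr8:94386357-94386407, plus strand: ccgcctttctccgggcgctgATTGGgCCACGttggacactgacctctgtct
Dnajb11, second form, chr16:22857847-22857867, plus strand: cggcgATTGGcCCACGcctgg

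The core of a further element, TGACGTGG, was found in 0.676% of all windows and, among the 31 genes, in that of Sec24d. The motif TGATGNAA, through which ATF4 and its partners bind amino acid response elements, was found in 3.97% of all windows and in that of Herpud1. A match describes these letters only, and 5 genes (Atf6, Derl1, Hyou1, Manf and Ostc) had no window.

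The 12 libraries held 23595929 to 41452662 expected counts each, and 20805 to 21858 genes had a count above 0. Defining markers of the cord (neuronal, astrocyte, oligodendrocyte, microglial and endothelial) summed to 26530 to 36240 normalised CPM (counts scaled by library total and TMM factor) in ETAQ mice and to 28430 to 34540 in WT mice. Mice 1 to 6 stood apart from mice 7 to 12 in markers of neighbouring tissue. The sum of 5 red cell genes was 1890 to 3511 CPM in mice 1 to 6 and 143 to 268 in mice 7 to 12. That of 8 skeletal muscle genes was 45.3 to 888 against 1.46 to 2.36, with Ckm, Myh4 and Tnnc2 at 0 in at least 1 mouse of the second set. The 8 neutrophil genes summed to 95.97 to 178 against 0.737 to 4.37, with Elane, S100a8, Camp, Ngp and Ltf at 0 in at least 1 mouse of the second set, and the 6 fibroblast genes to 177 to 373 against 71.1 to 84.7. The 10 genes of B and plasma cells, the second of which are rich in ER, summed to 89.6 to 105.1 in mice 1 to 6 and to 90.0 to 105.5 in mice 7 to 12, but most of that sum was Ebf1. Of the 8 tested, 5 were called higher and 1 lower in mice 1 to 6 by edgeR, and the B cell gene Cd79a was at 1.24 to 2.84 CPM there and at 0.0716 to 0.184 in mice 7 to 12. Other genes of the list overlapped between the sets, such as Jchain (0.386 to 0.637 against 0.326 to 0.644) and Tnfrsf17 (0.0429 to 0.152 against 0 to 0.0724). Mzb1 (0.131 to 0.350 against 0 to 0.129) and Igkc (0.243 to 0.687 against 0 to 0.0362) did not. Whether plasma cells differed between the sets was not tested. Each set had 3 mice of each genotype, but the first held 5 males and 1 female and the second 5 females and 1 male.

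None of the 31 genes passed the test for a difference between ETAQ and WT cords. With edgeR, 0 were called higher and 0 lower at an adjusted p under 0.05, and DESeq2 and limma-voom also called 0. Over all tested genes edgeR called 330, which is 1.92%, with 0.582% higher and 1.34% lower in ETAQ. At an unadjusted p under 0.05 there was 1 of the 31 in edgeR (Manf) and 2 in DESeq2 (Manf and P4hb), against 10.9% of all tested genes in edgeR. In no gene of the 31 did the 6 ETAQ mice lie apart from the 6 WT mice, as they did for 2.01% of all tested genes. The median log2 fold change of the 31, ETAQ over WT, was -0.0083, and that of all tested genes was 0.0043. Without regard to sign the medians were 0.034 for the 31 and 0.059 for all tested genes. Such p values measure the spread between mice, and in RNA of whole tissue fewer cells of a type and less RNA per cell cannot be told apart.

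The intervals limit how large a difference in the RNA of the whole cord could have gone unseen. They do not bound a change confined to a minor cell type, which RNA of other cells would dilute. The 95% interval of the fold change lay within 1.1-fold either way for 18 of the 31 genes, within 1.2-fold for 27, and within 1.3-fold for 30. The 4 genes whose interval went beyond 1.2-fold were Hspa5, Manf, Creld2 and Derl3. Derl3 alone went beyond 1.5-fold. Leaving it aside, the lowest bound was 0.772-fold, in Creld2, and the highest 1.16-fold, in Ern1.

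**Figure D1:**
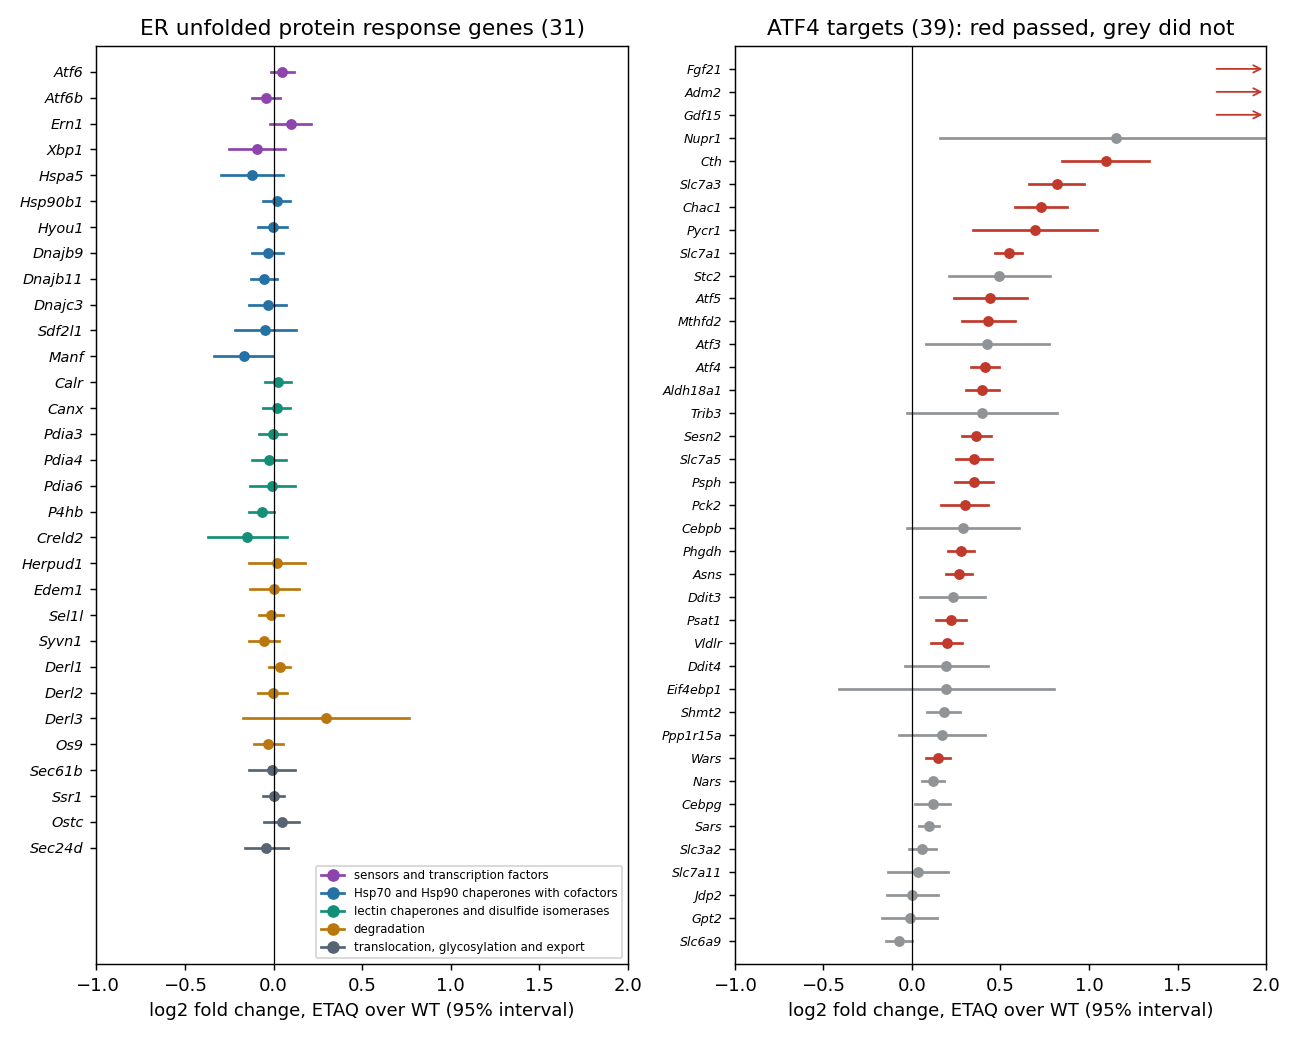
Log2 fold change, ETAQ over WT, with its 95% interval (edgeR, n = 6 mice each), for the 31 ER genes in 5 roles (left) and for 39 ATF4 targets (right), where red marks an adjusted p under 0.05 and arrows mark Fgf21, Adm2 and Gdf15, which lie beyond the axis (the interval of Nupr1 is cut at its end). All 31 ER intervals except that of Manf include 0, and 21 of the 39 ATF4 targets passed, against 1.92% of all tested genes.

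None of the 4 sensors and transcription factors passed the test, and their ranges overlapped between genotypes. Atf6 (chr1:170704674-170867771; gene positions here are from GENCODE M21, GRCm38), the sensor cleaved in the Golgi, was at 62.2, 64.6 and 65.5 normalised CPM in ETAQ mice (lowest, median and highest) and at 58.2, 62.6 and 64.5 in WT mice. The groups overlapped, and the log2 fold change was 0.049 ± 0.030 (SE; edgeR adjusted p = 0.633). Its paralogue Atf6b was at 28.7 to 31.8 CPM in ETAQ mice and at 28.95 to 31.7 in WT mice, a log2 fold change of -0.041 ± 0.037 (adjusted p = 0.782). Ern1 (chr11:106394650-106487852), the IRE1 kinase and endoribonuclease, had a median of 16.7 and a highest value of 18.0 CPM in ETAQ mice, and a median of 15.2 and a highest value of 17.5 in WT mice, with a log2 fold change of 0.096 ± 0.055 (adjusted p = 0.592). Xbp1 (chr11:5520659-5525893), the substrate of IRE1 and itself a target of ATF6, was at 44.4, 49.3 and 59.2 CPM in ETAQ mice and at 45.9, 55.7 and 59.7 in WT mice. Its lowest and highest mice were close in both genotypes, and its log2 fold change was -0.096 ± 0.072 (adjusted p = 0.725). It moved to -0.045 without ETAQ mouse 11 and to -0.046 without WT mouse 12. Counts per gene do not separate spliced from unspliced Xbp1 mRNA, nor do they read the cleavage of ATF6 or the phosphorylation of IRE1, so these values bear on the amount of each mRNA and not on its activity.

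Hspa5 (chr2:34771970-34777547) encodes BiP, the ER Hsp70 that binds unfolded chains and holds the sensors inactive. It was at 238, 259 and 296 normalised CPM in ETAQ mice and at 245, 279 and 349 in WT mice. The highest value belonged to WT mouse 12, and 4 of the other 5 WT mice lay within the ETAQ range. Its mean was 263.5 ± 19.4 CPM in ETAQ and 287 ± 36.5 in WT (SD, n = 6 each), a log2 fold change of -0.12 ± 0.08 (95% interval -0.30 to 0.052; edgeR adjusted p = 0.663), which moved to -0.043 without mouse 12. Hsp90b1, the ER Hsp90 known as GRP94, was at 385 to 410 CPM in ETAQ mice and at 375.5 to 430.0 in WT mice, and its log2 fold change was 0.017 ± 0.035. Of its 75-base sequences 6.73% also occur in other genes, and exons of other genes cover 10.3% of its exon bases on the opposite strand and 5.38% on its own, so its count is less certain.

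Of the 6 partners of BiP none passed the test. Hyou1, a large Hsp70 that exchanges the nucleotide of BiP, was at 108 to 120.5 CPM in ETAQ mice and at 109.8 to 129 in WT mice, of which the 5 other than mouse 12 lay between 109.8 and 111.1. The J-domain proteins that direct BiP to its clients had log2 fold changes of -0.034 ± 0.042 (Dnajb9), -0.053 ± 0.035 (Dnajb11) and -0.032 ± 0.049 (Dnajc3). Leaving out 1 mouse moved Dnajb9 to as little as -0.010 (ETAQ mouse 9), Dnajb11 to -0.023 (WT mouse 12), and Dnajc3 to between -0.064 (WT mouse 4) and -0.0059 (WT mouse 2). Dnajb9, a target of XBP1, averaged 49.5 ± 2.69 CPM in ETAQ and 50.7 ± 2.28 in WT (SD, n = 6 each). Sdf2l1, which keeps aggregation-prone clients soluble together with DNAJB11, was at 7.80, 8.51 and 9.88 CPM in ETAQ mice and at 7.92, 8.75 and 10.5 in WT mice. Those ranges nearly coincide, and the log2 fold change was -0.047 ± 0.080 (edgeR adjusted p = 0.905).

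Manf (chr9:106838312-106891979), a small BiP cofactor that is also secreted and protects neurons, had the smallest p of the 31. It was at 28.6, 32.5 and 40.0 CPM in ETAQ mice and at 32.6, 37.7 and 41.7 in WT mice. The groups overlapped, since ETAQ mouse 6 was above 5 of the 6 WT mice. Its mean was 33.3 ± 3.996 CPM in ETAQ and 37.5 ± 3.37 in WT (SD, n = 6 each), a log2 fold change of -0.17 ± 0.08 (95% interval -0.33 to -0.0025). The edgeR p was 0.0471 before and 0.448 after adjustment over all tested genes. Exons of other genes cover 8.85% of its exon bases on the opposite strand, and the strand setting of the counting is not given in the sources used here.

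**Figure D2:**
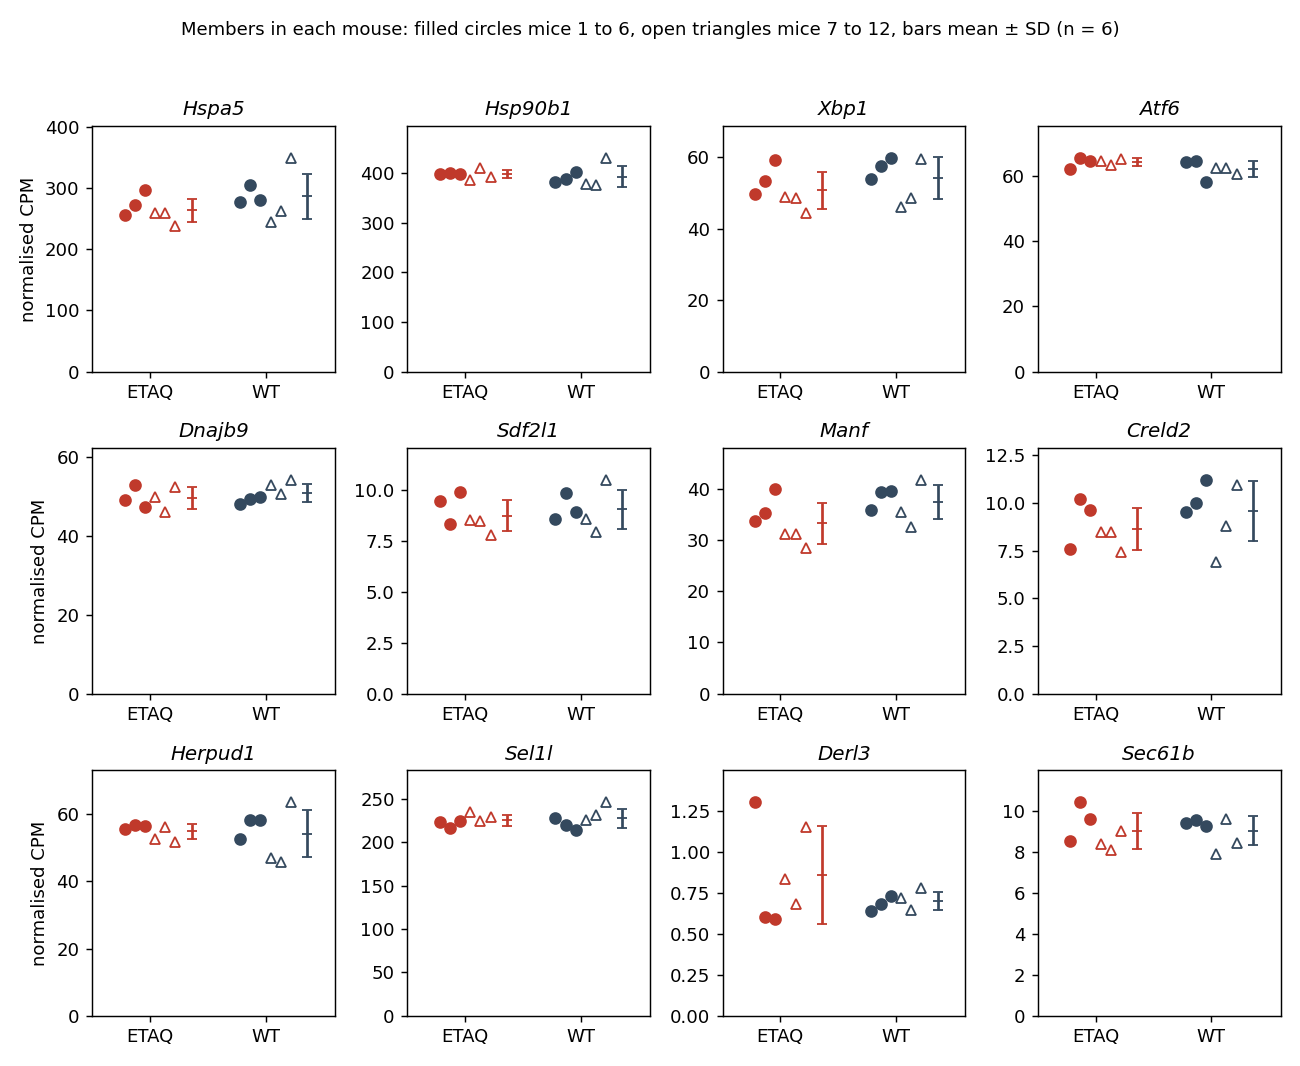
Normalised CPM of 12 of the 31 genes in every mouse, ETAQ left and WT right, with filled circles for mice 1 to 6, open triangles for mice 7 to 12, and mean ± SD bars (n = 6 each) on axes that start at 0. In each panel the 2 genotypes overlap, and the highest Hspa5 value, 349 CPM, is WT mouse 12.

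None of the 7 lectin chaperones and disulfide isomerases passed the test, and their median log2 fold change was -0.0073. Calr and Canx, the soluble and the membrane-bound lectin that hold glycoproteins until they fold, had log2 fold changes of 0.022 ± 0.034 and 0.017 ± 0.035 (edgeR adjusted p = 0.890 and 0.926). Calr was at 262.5, 286 and 291 CPM in ETAQ mice and at 269.5, 275 and 301 in WT mice. The lowest of the 12 values was ETAQ mouse 11 and the highest WT mouse 12. Pdia3, the isomerase that works with both lectins, averaged 189 ± 3.15 CPM in ETAQ and 190 ± 11.2 in WT (SD, n = 6 each), so the WT spread was the wider one, with mouse 12 at 212. Pdia4 and Pdia6, isomerases of the BiP complex, had log2 fold changes of -0.025 ± 0.045 and -0.0073 ± 0.058.

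P4hb (chr11:120560298-120573253), the classic protein disulfide isomerase and a subunit of collagen prolyl hydroxylase, was at 137, 144.5 and 155 CPM in ETAQ mice and at 143, 151 and 158 in WT mice. The groups overlapped, and the log2 fold change was -0.068 ± 0.032 (edgeR adjusted p = 0.463). Creld2, an ER-resident protein with EGF-like domains that ER stress induces, was at 7.42, 8.47 and 10.2 CPM in ETAQ mice and at 6.91, 9.76 and 11.2 in WT mice. Both the lowest and the highest value were in WT mice, and the log2 fold change was -0.15 ± 0.10 (adjusted p = 0.692). That value moved to -0.074 without WT mouse 12 and to -0.089 without ETAQ mouse 11.

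The 8 degradation genes act where misfolded proteins are drawn back into the cytosol, and 0 of them passed. Sel1l and Syvn1 encode the adaptor and the ubiquitin ligase (HRD1) at the core of that machine. Sel1l averaged 225 ± 6.22 CPM in ETAQ and 228 ± 10.9 in WT, and Syvn1 41.2 ± 1.96 in ETAQ and 42.8 ± 1.697 in WT (SD, n = 6 each). Herpud1 (chr8:94386438-94395377), a scaffold of the HRD1 complex whose promoter held both the second element and the ATF4-type motif, was at 51.7, 55.9 and 57.0 CPM in ETAQ mice and at 45.7, 55.5 and 63.6 in WT mice. All ETAQ mice lay inside the WT range, and the log2 fold change was 0.019 ± 0.073 (95% interval -0.14 to 0.18; edgeR adjusted p = 0.966).

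Edem1, which trims mannose and so marks glycoproteins for disposal, had a log2 fold change of 0.0030 ± 0.064, and Os9, a lectin that reads that mark, had -0.030 ± 0.038. The derlins are membrane proteins through which clients leave the ER. Derl1 was at 80.9 to 86.95 CPM in ETAQ mice and at 79.7 to 86.2 in WT mice, and Derl2 at 28.97 to 31.97 in ETAQ mice and 28.9 to 31.9 in WT mice. Derl3 was the least abundant of the 31, with 14 to 44 counts in a library. It was at 0.589, 0.756 and 1.302 CPM in ETAQ mice and at 0.637, 0.700 and 0.780 in WT mice. ETAQ mice 1 and 11 were the highest and the other 4 ran from 0.589 to 0.833, to both sides of the WT range, so the log2 fold change of 0.30 ± 0.22 (95% interval -0.17 to 0.77; adjusted p = 0.716) did not exceed the spread.

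The 4 genes of translocation, glycosylation and export had log2 fold changes from -0.041 to 0.046, and 0 passed. Sec61b, a subunit of the translocon, averaged 9.01 ± 0.876 CPM in ETAQ and 9.04 ± 0.698 in WT, and with 10.1% of its 75-base sequences also found in other genes its count is less certain. Ssr1, a subunit of the translocon-associated complex, averaged 179.6 ± 4.14 CPM in ETAQ and 179.6 ± 4.61 in WT (SD, n = 6 each), a log2 fold change of -0.0004 ± 0.027. Ostc, a subunit of the oligosaccharyltransferase that adds glycans to nascent chains, had 0.046 ± 0.046. Sec24d, a cargo-binding subunit of the COPII coat, had -0.041 ± 0.058.

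Of the 31 genes 10 had a log2 fold change above 0 and 21 below 0. With limma on log2(TPM + 1) 22 were above 0 and with upper-quartile scaling 16, but the median of all tested genes moved too. The median of all tested genes was 0.036 on log2(TPM + 1), where that of the 31 was 0.025, and it was 0.013 with upper-quartile scaling, where that of the 31 was 0.0006. The median of the 31 stayed below that of all tested genes under both scalings. Upper-quartile scaling moves most genes nearly alike, so this order is not evidence separate from the TMM fit. The TPM scale moved genes unequally, with Atf6b going from -0.041 to 0.090 and Ern1 from 0.096 to 0.062. It rests on the same libraries, so its order is not separate evidence either. Without WT mouse 12 there were 18 above 0, with a median of 0.0082 for the 31 and 0.0054 for all tested genes. TPM, unlike CPM, is scaled by gene length. On that scale P4hb averaged 95.4 ± 3.97 in ETAQ and 98.9 ± 4.06 in WT, whereas Atf6b averaged 32.5 ± 2.57 in ETAQ and 30.6 ± 4.09 in WT (SD, n = 6 each), above WT by TPM and below it by CPM.

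The levels of the genes relative to each other can be read from TPM. Over all 12 mice the most abundant were the lectins Calr (296 TPM) and Canx (290 TPM), then the chaperones Hsp90b1 (259 TPM) and Hspa5 (203 TPM), Pdia3 (127 TPM), P4hb (97.2 TPM) and Manf (91.2 TPM). The least abundant were Edem1 (10.6 TPM), Sec24d (6.69 TPM), Ern1 (4.49 TPM) and Derl3 (1.19 TPM). Calr was at 299 ± 8.03 TPM in ETAQ and 292 ± 19.3 in WT, and Canx at 296 ± 7.66 in ETAQ and 284 ± 19.1 in WT, so that these neighbours did not differ beyond their spread. Of the sensors, Atf6 (15.2 TPM) and Atf6b (31.5 TPM) were above Ern1, and their target Xbp1 was at 50.96 TPM.

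**Figure D3:**
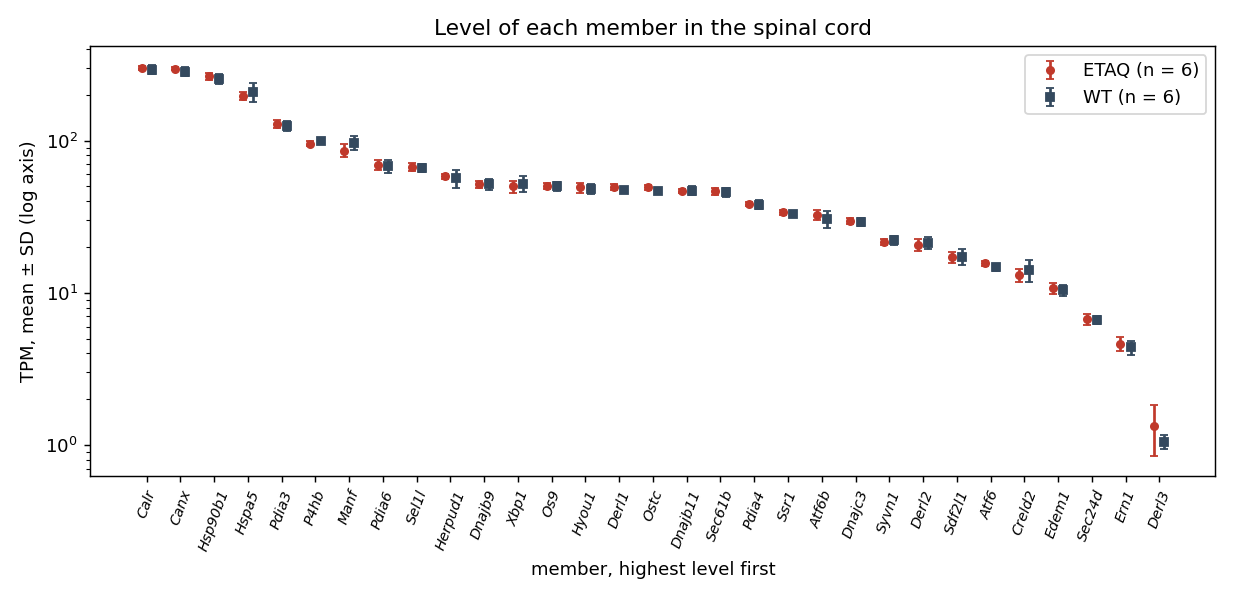
TPM of the 31 genes (mean ± SD, n = 6 mice each, log axis), from the most to the least abundant, with ETAQ left of WT. The order runs from Calr at 296 TPM to Derl3 at 1.19 TPM over all mice, and the bars of the 2 genotypes overlap for each of the 31 genes.

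Of the 11 genes with an ER stress response element of either form 0 passed the test, 5 were above and 6 below 0, and their median log2 fold change was -0.0073. The 15 genes with a window that held neither form had a median of -0.025, with 2 above and 13 below 0, and 0 passed. Without WT mouse 12 and on the TPM scale signs moved as given above, so no order is read from these medians.

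Single mice stood out across many of the genes. WT mouse 12 had the highest CPM of the 12 mice for 14 of the 31 genes and was above the gene's mean in 26, with a median deviation of 0.10 on the log2 scale. ETAQ mouse 11 had the lowest CPM for 9 of the 31. How often these mice were highest or lowest over all tested genes was not counted, so these counts may not be particular to the 31. By role, the median deviation of mouse 12 was 0.17 among the Hsp70 and Hsp90 chaperones, 0.10 among the lectin chaperones and isomerases and 0.048 among the degradation genes. It was 0.0095 among the sensors and transcription factors and -0.0024 among the translocation, glycosylation and export genes. In sum the 31 genes took 0.324% to 0.335% of all counts in ETAQ mice and 0.319% to 0.351% in WT mice, with mouse 12 at the top. The highest mouse exceeded the lowest by a median of 1.19-fold. For the 27 of the 31 with a mean of at least 10 CPM that median was 1.18-fold, and over all 10264 genes at that level it was 1.22-fold.

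**Figure D4:**
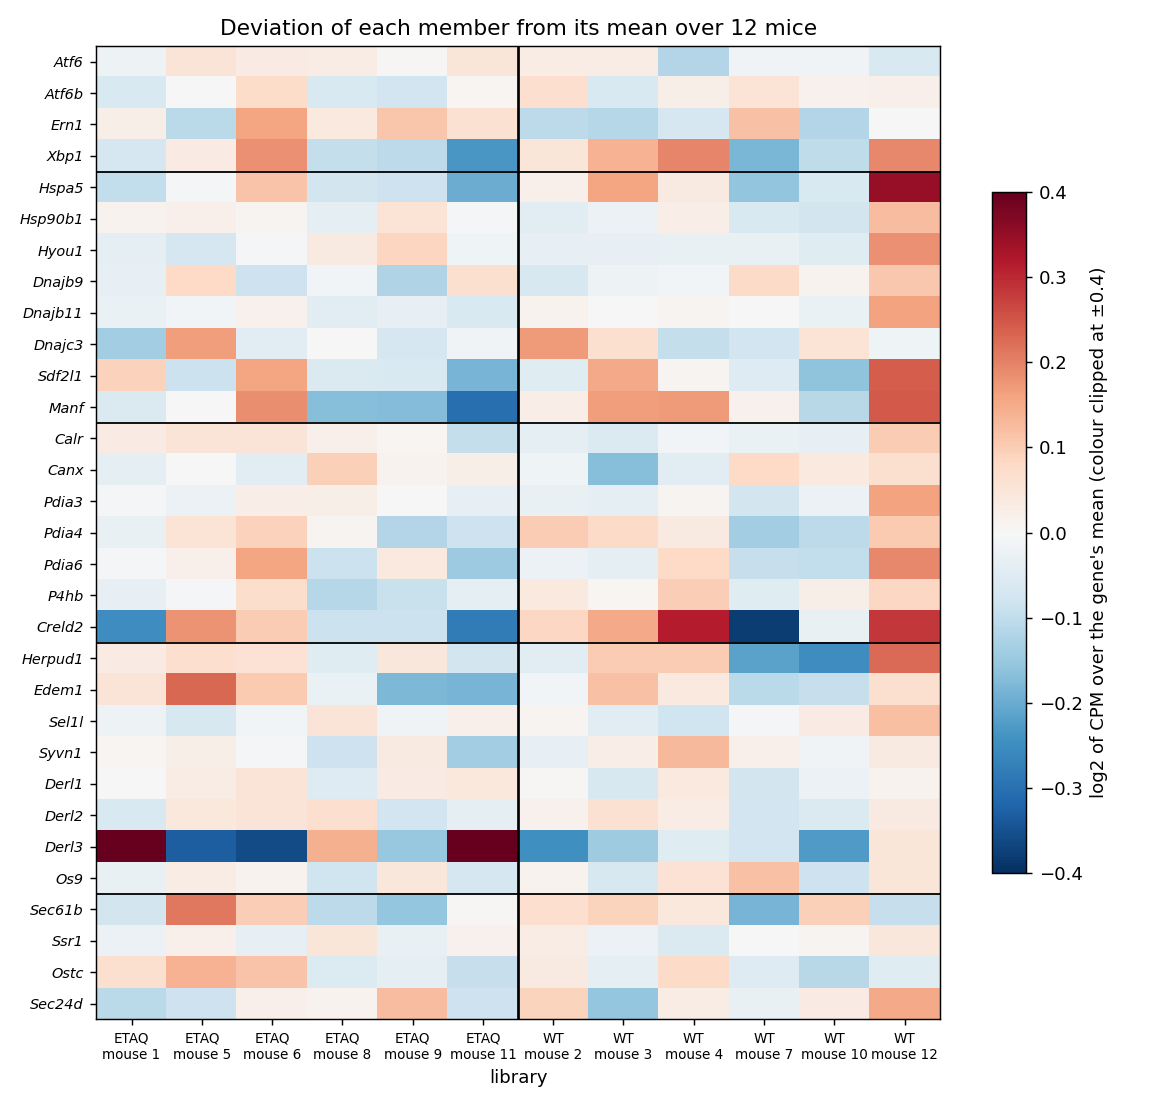
Log2 deviation of the CPM of each of the 31 genes (rows, grouped by role) from its mean over 12 mice (columns, 6 ETAQ left, 6 WT right), with colour clipped at ±0.4. Mouse 12, the last WT column, is above the mean for 26 genes, and no row separates the 2 genotypes.

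Because the sets of mice differ in tissue markers, each was also given its own genotype effect in a fit of all 12 libraries with sex as covariate. Within mice 1 to 6 (3 ETAQ, 3 WT) 0 of the 31 genes were called by edgeR and by DESeq2, against 0.803% of all tested genes in edgeR, and 0 had an unadjusted p under 0.05 in either tool. Within mice 7 to 12, 0 were called by either tool, against 0.937% of all tested genes in edgeR, and 2 had an unadjusted p under 0.05 in each. In edgeR these were Manf, with a log2 fold change of -0.28 ± 0.10 (edgeR adjusted p = 0.334), and P4hb, with -0.12 ± 0.04 (adjusted p = 0.331). In mice 1 to 6 Manf had -0.071 ± 0.096 and P4hb -0.014 ± 0.043. The difference between the sets was tested itself, with 0 of the 31 called by edgeR or DESeq2, 0 at an unadjusted p under 0.05, and 0% of all tested genes called. The WT mice among mice 1 to 6 were all male, and those among mice 7 to 12 all female. The effects within sets and their difference are therefore separated from sex only through ETAQ mice 1 (female) and 11 (male). Manf was lowest in mouse 11 and highest in WT mouse 12.

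Between the sets themselves 0 of the 31 genes were called by edgeR with sex and genotype in the fit, against 7.89% of all tested genes. At an unadjusted p under 0.05 there were 2 in edgeR and 4 in DESeq2, which also called 0. Edem1 had a log2 difference, mice 1 to 6 over mice 7 to 12, of 0.20 ± 0.07 (edgeR adjusted p = 0.0982), and Ostc one of 0.14 ± 0.05 (adjusted p = 0.114). Without mouse 12 Edem1 passed (0.22, adjusted p = 0.0441). Without sex in the fit Canx (-0.10, adjusted p = 0.0194), Edem1 (0.17, adjusted p = 0.0211) and Ostc (0.13, adjusted p = 0.0185) passed. Set and sex largely coincide, and in WT mice they do so fully. With sex in the fit, the set difference is separated from sex only through ETAQ mice 1 (female) and 11 (male). The part of the red cell, muscle, neutrophil and fibroblast transcripts in these differences was not tested.

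In females (3 ETAQ, 3 WT) 0 of the 31 genes were called by edgeR or DESeq2, against 0.739% of all tested genes in edgeR, and 2 had an unadjusted p under 0.05 in each. In edgeR these were Dnajb9, with a log2 fold change of -0.12, and P4hb, with -0.099, and the smallest adjusted p was 0.520. In males (3 ETAQ, 3 WT) 0 were called, against 0.669%, and 0 had an unadjusted p under 0.05 in edgeR or DESeq2. The difference between the sexes gave 0 calls among the 31 in edgeR and DESeq2 and 0% of all tested genes. At an unadjusted p under 0.05 there was 1 of the 31 in each tool, in edgeR Dnajb9, with a log2 difference, females minus males, of -0.17 (edgeR adjusted p = 0.901). The WT females all came from 1 set of mice and the WT males all from the other. In each sex 1 ETAQ mouse came from the set that held no WT mice of that sex. The genotype effects by sex and their difference, that of Dnajb9 included, were therefore not separated from set.

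The ATF4 side of the stress response was read in the same 12 libraries. Of 39 ATF4 targets 21 were called higher and 0 lower by edgeR, against 0.582% and 1.34% of all tested genes. Their median log2 fold change was 0.30. In 20 of the 39 the genotypes did not overlap, against 2.01% of all tested genes. Atf4 itself was at 93.9 to 107 CPM in ETAQ mice and at 67.4 to 80.7 in WT mice, a log2 fold change of 0.41 ± 0.04 (adjusted p = 1.43e-05). Chac1, a glutathione-degrading enzyme, had 0.73 ± 0.07 (adjusted p = 1.6e-05), Cth, an enzyme of cysteine synthesis, 1.09 ± 0.12, and the cationic amino acid transporters Slc7a1 and Slc7a3 0.55 ± 0.04 and 0.82 ± 0.07. Fgf21, a stress-induced hormone gene, averaged 7.25 ± 0.806 CPM in ETAQ and 0.0314 ± 0.0339 in WT (SD, n = 6 each). That list was known to respond from earlier results of these data, so its count is a description set beside that of the ER genes and not independent evidence.

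Genes shared by both arms, or upstream of them, were read whatever their values. Eif2ak3, the PERK kinase, was at 36.8 ± 0.733 CPM in ETAQ and 35.0 ± 0.927 in WT (SD, n = 6 each), with a log2 fold change of 0.071 ± 0.032 that did not pass (edgeR adjusted p = 0.440). Ddit3, the CHOP factor that ATF4 induces, was at 13.8 to 19.8 CPM in ETAQ mice and at 12.3 to 16.2 in WT mice, and its log2 fold change of 0.23 ± 0.09 did not pass (edgeR adjusted p = 0.288). Mbtps1 and Mbtps2, the Golgi proteases that cleave ATF6, had 0.029 ± 0.025 and -0.013 ± 0.048. Gars, the gene that carries the deletion, was higher in ETAQ by 0.19 ± 0.03 (adjusted p = 0.00408), and counts per gene do not tell its 2 alleles apart.

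A wider set of ER genes was counted beside the 31. Of 106 further genes of lumenal folding, degradation, translocation and glycosylation, export and retrieval, and stress sensing, 104 were tested, 0 were called higher and 1 lower by edgeR, and 10 had an unadjusted p under 0.05. Over all tested genes edgeR called 0.582% higher and 1.34% lower, and 10.9% had an unadjusted p under 0.05, so neither count of the 104 stood above the background. Their median log2 fold change was -0.0079. The one called was Wfs1, which encodes wolframin, an ER membrane protein linked to calcium balance and to the restraint of ATF6. It was at 53.2 to 56.8 CPM in ETAQ mice and at 60.1 to 67.8 in WT mice, without overlap, with a log2 fold change of -0.19 ± 0.03 (adjusted p = 0.00471). Markers of motor neurons, of which 4 of 7 were called lower, moved in the same direction, summing to 132 to 168 CPM in ETAQ mice and 232 to 278 in WT mice, and their part in the value of Wfs1 was not tested.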

How the data were processed

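For each mouse the authors deposited 1 table with an expected count, a TPM value and an FPKM value for each gene, besides its length and effective length. Bowtie2 2.2.0 and RSEM 1.2.12 are named in the submitters' processing notes, and RSEM can split reads among genes of like sequence. The genome build, annotation and strand setting are not given in the sources used here. Per the labels' protocols, polyA libraries were read as 75 bp pairs, and 2 KAPA kits are named without saying which library used which. FPKM values, scaled by length and depth by the authors per the file headers, were not used.

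Expected counts (15.4% of values not whole) were rounded. In R 4.3.3, edgeR 4.0.16 kept 17189 genes (filterByExpr over 4 genotype-by-sex groups), scaled libraries by TMM (factors 0.975 to 1.02), and tested genotype with sex as covariate by its robust quasi-likelihood test, Benjamini-Hochberg adjusted over all tested genes, threshold 0.05. A count of 0 allows up to 3 counts, 0.0724 to 0.127 CPM, which covers counting error only. DESeq2 1.42.0, limma-voom and limma 3.58.1 on log2(TPM + 1) were alternatives. Only the edgeR test was run on simulated data, without the effect in males or the difference of the genotype effects between the sets.

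The 31 genes and all lists were chosen with earlier results of these data known. All 31 genes are named. From the other ER lists and the ATF4 list up to 6 called genes with the smallest p are named, and Eif2ak3, Ddit3, Mbtps1, Mbtps2 and Gars whatever their values. Gene positions are from GENCODE M21 (GRCm38) by Ensembl ID, and genes with 5% or more of their 75-base sequences in other genes were called uncertain. A planned reading of protein ends was not run.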

Additional observations from a re-analysis of the deposited data

Results flagged for a closer look

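Among the 6 mice of a genotype, 1 mouse stood far from the other 5 in 5 of 62 combinations of gene and genotype (its gap to the nearest other mouse, divided by the range of the group, exceeded 0.625, Dixon's value for 6 mice). Chance flags about 1 group in 20, and the combinations share the same mice, so they are not independent. WT mouse 12 was the high one in 4 of the 5. There Hyou1 was at 129 CPM against 109.8 to 111.1 in the other WT mice, Dnajb11 at 52.4 against 46.1 to 47.4, Calr at 301 against 269.5 to 278.5, and Pdia3 at 212 against 180 to 191. The remaining one was Calr in ETAQ mouse 11, low at 262.5 CPM against 282 to 291 in the other ETAQ mice.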

How the results depend on the processing

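The count of 0 of the 31 genes called for genotype held under all 24 alternatives (12 of them without 1 mouse), and the smallest adjusted p of any of the 31 over them was 0.186 (Manf, edgeR without ETAQ mouse 6). Over all tested genes the 330 genotype calls became 506 with DESeq2, 151 with limma on log2(TPM + 1) and 503 with set of mice in place of sex. Between the sets of mice the 0 calls among the 31 became 3 without sex in the fit, and 0 to 1 without 1 mouse. Of the 31, 14 kept the sign of the genotype effect under every alternative and 17 did not. On log2(TPM + 1) the sign changed for Atf6b (0.090), Hyou1 (0.028), Dnajb9 (0.0062), Dnajc3 (0.010), Pdia3 (0.041), Pdia4 (0.017), Pdia6 (0.031), Sel1l (0.016), Os9 (0.012), Sec61b (0.025), Ssr1 (0.041) and Sec24d (0.0027), where the median of all genes was 0.036. With upper-quartile scaling (median of all genes 0.013) it changed for Hyou1 (0.0055), Pdia3 (0.0042), Pdia6 (0.0018), Derl2 (0.0055), Sec61b (0.0006) and Ssr1 (0.0089). Ssr1 was at 0.0012 with DESeq2 and 0.0015 with RLE factors, and Edem1 at -0.0032 with limma-voom, -0.0015 with set and sex and -0.0014 with set in place of sex. Without 1 mouse the log2 fold change ran from -0.021 to 0.032 in Hyou1, -0.091 to 0.0065 in Sdf2l1, -0.0089 to 0.036 in Canx, -0.024 to 0.029 in Pdia3, -0.047 to 0.0083 in Pdia4, -0.044 to 0.040 in Pdia6, -0.024 to 0.088 in Herpud1, -0.038 to 0.051 in Edem1, -0.026 to 0.0065 in Sel1l, -0.025 to 0.011 in Derl2, -0.037 to 0.034 in Sec61b and -0.011 to 0.0086 in Ssr1. Among genes whose sign held without any 1 mouse it ran from 0.027 to 0.058 in Atf6, 0.0032 to 0.048 in Hsp90b1, 0.0094 to 0.045 in Calr, -0.068 to -0.029 in Syvn1, 0.020 to 0.045 in Derl1, 0.14 to 0.38 in Derl3, -0.051 to -0.0077 in Os9, 0.027 to 0.079 in Ostc and -0.070 to -0.015 in Sec24d. The cause of these changes was not tested. No paired analysis was possible because each mouse number belongs to 1 library and is not shared between genotypes. Depth limits Derl3, with 14 to 44 counts in a library.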
